A study of Cyprinus carpio with 6 samples.

Results

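Hepatic leukemia factor (hlf) is a transcription factor of the PAR bZIP family, named for a proline- and acid-rich region beside a basic leucine zipper. In the common carp (Cyprinus carpio), a fish whose genome was duplicated, the deposited gene table holds 8 rows described as hepatic leukemia factor-like, out of 53152 rows in all. These 8 copies were taken by that description, and all 8 rows with the KEGG orthology entry for hlf were the same rows. Brain RNA was sequenced as poly(A) messenger RNA in 6 libraries, 3 labelled with lead as the agent and 3 labelled with no agent, here called control, all from brain tissue. The labels give no lead dose, duration, age, sex or hour of sampling. Nothing in them ties a library to its own fish, so p-values measure the spread among these libraries only, and that spread may be technical. The study's stated aim was to learn how lead injures the carp brain. Total counts over genes lay between 27841520 and 32826120 in lead libraries and between 31159339 and 34848243 in control libraries. The copies were chosen with their difference between lead and control already known, so their levels and fold changes are a description, and counts of calls among them are given only beside the share over all genes, with nothing read from them.

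In mammals, HLF and its relatives TEF (thyrotroph embryonic factor) and DBP (D site-binding protein) activate genes through a DNA element called the D-box. NFIL3, a repressor with a related zipper, binds the same element. The mammalian Dbp gene is switched on by the clock activators, and clock genes such as the period genes carry D-boxes of their own, so the family sits at the output of the circadian clock and also feeds back on it. Mice without these 3 activators have less pyridoxal kinase, the enzyme that makes active vitamin B6, in the brain and suffer seizures. In zebrafish, D-boxes also take part in the response of clock genes to light.

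The 8 copies fell into 3 sets by the genes that lie beside them. Copies were joined where at least 3 named neighbours within 10 places on each side were shared, in the deposited table or in the gene order of a later RefSeq assembly (ASM1834038v1), in which 6 of the 8 gene IDs were found. The later table names LOC109051782 hlfa and LOC109100011 hlfb, and gives the other 4 matched copies a locus number only. LOC109051765 and LOC109105462 were not found in it. Between sets, no pair of copies shared more than 1 named neighbour within either table. These sets were drawn after the values were seen, but no expression value was used to draw them.

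The first set held 4 copies, LOC109105462, LOC109073116, LOC109057068 and LOC109073676, and is called here the NMDA 2D neighbour set. In the later gene order LOC109073116 and LOC109057068 shared 8 named neighbours, among them genes for the NMDA receptor subunit 2D, a glutamate receptor subunit, and for the deubiquitinase josephin-2. LOC109073676 shared 7 named neighbours with LOC109073116 and 3 with LOC109057068, and the NMDA 2D gene was in both counts. LOC109105462, described as a partial sequence, was joined to LOC109073116 by 3 neighbours with the same gene IDs: LOC109105463, LOC109105088 and LOC109105091 follow LOC109105462 in the deposited table and precede LOC109073116 in the later order. In the deposited table the copies lie on different sequences, LOC109105462 on NC_031727.1 from 20204945 to 20210329 (plus strand) and LOC109073116 on NW_017540217.1 from 29204 to 40241 (plus strand). Whether these rows are separate genes or parts of one was not tested, and reads that fit both could be counted in either. LOC109057068 lies on NW_017537993.1 from 462724 to 467701 (minus strand) and LOC109073676 on NC_031704.1 from 4833878 to 4844521 (plus strand). Within either table no named neighbour was shared between this set and the hlfa or hlfb set. Across the tables, LOC109073676 shared the name SBK1, a kinase, with LOC109100011, and a coiled-coil domain protein name with LOC109099671. No protein sequence was used here, so whether these 4 copies belong to hlf or to another gene of the family was not tested.

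The hlfa set held LOC109051782 and LOC109051765, which lie on the same sequence, NC_031701.1, from 16152670 to 16162962 and from 16330402 to 16349246, both on the plus strand. Each is followed directly by a gene for monocyte to macrophage differentiation factor. The windows around them have 17 gene IDs in common, both copies among these. The 8 names they share thus come mostly from the same genes, and their closeness on the sequence fixed this join. LOC109051765 was not found in the later order, and LOC109046180, between both rows in the deposited order, lies near LOC109051782 there. Whether these rows are separate genes was not tested. The hlfb set held LOC109100011, on NC_031720.1 from 1367957 to 1372897 (plus strand), and LOC109099671, on NC_031719.1 from 14392790 to 14397854 (minus strand). They shared 6 named neighbours in the later order, among them fatty acid synthase and the vesicle protein gene rab40b. In the deposited table LOC109100011 lies within the span of stxbp4, the gene for syntaxin-binding protein 4. That span runs on the same strand from 1334565 to 1446692. In the later order stxbp4 lies directly beside LOC109099671 instead, and is not within 10 places of LOC109100011. The stxbp4 gene was at 0.0677, 0.154 and 0.123 CPM in lead replicates 1, 2 and 3, against 0.335, 0.248 and 0.245 CPM in control replicates 1, 2 and 3.

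**Figure D1:**
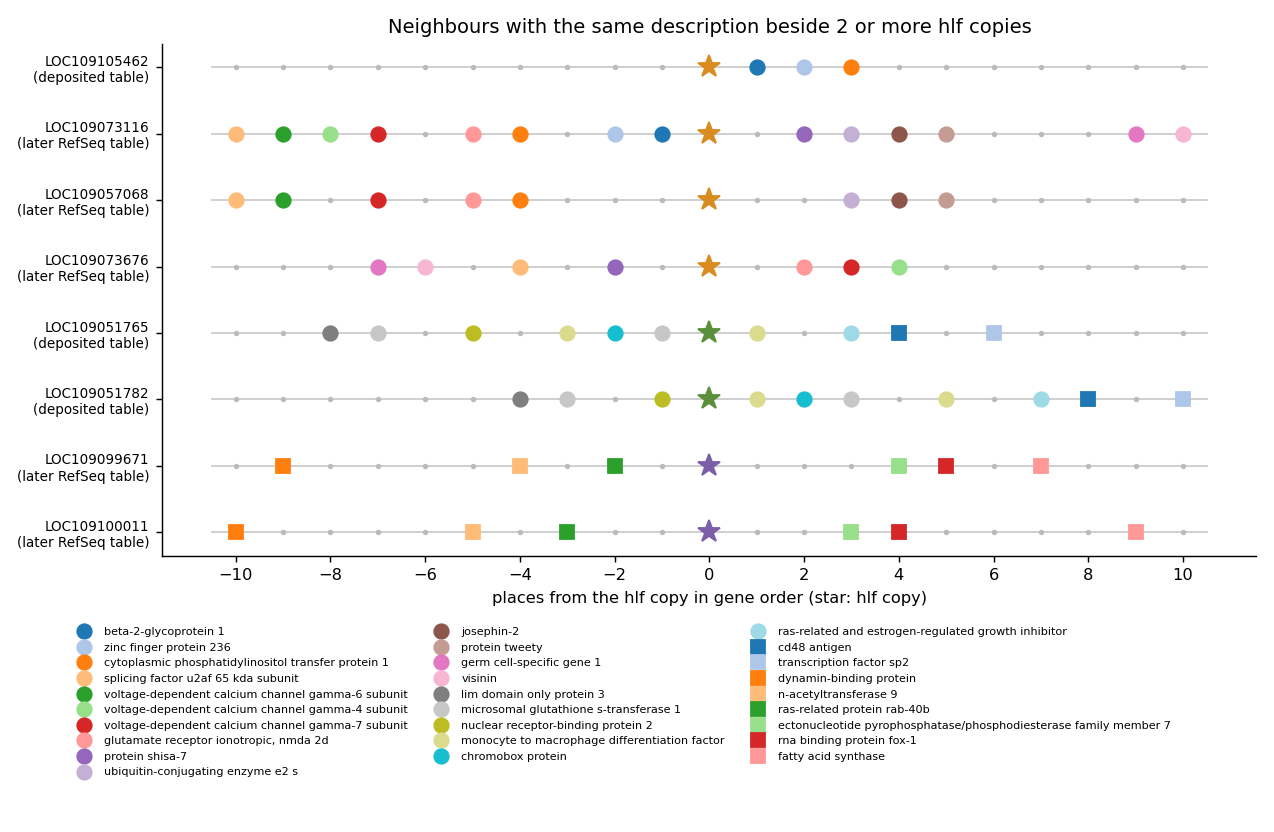
Gene order around each hlf copy, with places from the copy on the horizontal axis and 1 copy per line, labelled with the table that gives the order. Coloured marks are neighbours whose description occurs beside 2 or more copies, grey dots are other genes and stars are the hlf copies. LOC109073116 and LOC109057068 share 8 names, and LOC109099671 and LOC109100011 share 6.

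In lead brains all 4 copies of the NMDA 2D neighbour set were higher than in control brains, by 2.41-fold to 6.18-fold, and both copies of the hlfb set were lower. In the hlfa set 1 copy was higher and 1 lower. Levels are given as TMM-scaled CPM (counts set relative to library size), a scaling that sets the libraries' gene-wise ratios level before they are compared. Log2 fold changes and their standard errors come from an edgeR fit to the counts of all 32149 genes with an FPKM (a read level scaled by transcript length and library depth) of at least 1 in at least 3 libraries. All 8 copies passed this filter, but LOC109100011 passed only through control, since its FPKM in lead libraries was below 1. At a Benjamini-Hochberg adjusted p of 0.05 in edgeR's quasi-likelihood test over all genes, 0.0467% of genes were called higher with lead and 0.0124% lower. Of the 8 copies, LOC109105462 and LOC109073116 were called higher, and either direction was called for 0.0591% of all genes. Without lead replicate 2, LOC109105462 alone was called. DESeq2 called 5 copies, LOC109057068, LOC109073116, LOC109073676, LOC109100011 and LOC109105462, against 4.13% of the 32084 genes it gave an adjusted p-value. Where 4.13% is given below as a share of all genes, it is of these 32084. The groups did not overlap with lead above control for 5 copies, against 11.9% of all genes tested, and with lead below control for 1 copy, against 12.6%. In all 24.5% of genes did not overlap in one direction or the other. Since the copies were chosen on this contrast, nothing follows from these counts.

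LOC109105462 had 101, 115 and 109 CPM in lead replicates 1, 2 and 3, against 16.0, 18.8 and 17.8 CPM in control replicates 1, 2 and 3. The lowest lead library was thus far above the highest control library, and both groups were narrow. The means were 108 ± 7.07 CPM in lead and 17.5 ± 1.45 CPM in control brains (SD, n = 3 each), a 6.18-fold higher level and a log2 fold change of 2.63 (SE 0.14).

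LOC109073116 had 185, 182 and 175 CPM in lead replicates 1, 2 and 3, against 31.9, 31.9 and 46.3 CPM in control replicates 1, 2 and 3. The groups were far apart, and control replicate 3 was the highest of its group. The means were 180.4 ± 5.37 CPM in lead and 36.7 ± 8.32 CPM in control brains (SD, n = 3 each), and the log2 fold change was 2.30 (SE 0.18).

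LOC109057068 was the lowest of the set, with 15.9, 19.3 and 27.4 CPM in lead replicates 1, 2 and 3, against 6.39, 3.78 and 7.64 CPM in control replicates 1, 2 and 3. The groups did not overlap, although lead replicate 3 was well above lead replicate 1. Its log2 fold change was 1.81 (SE 0.32), from 20.9 ± 5.92 CPM in lead and 5.94 ± 1.97 CPM in control brains (SD, n = 3 each). LOC109073676 had 61.9, 70.0 and 81.5 CPM in lead replicates 1, 2 and 3, against 28.3, 23.9 and 36.3 CPM in control replicates 1, 2 and 3. Again no control library reached the lead libraries, and its libraries stood in the same order within each group as those of LOC109057068. The log2 fold change was 1.27 (SE 0.19), from 71.1 ± 9.84 CPM in lead and 29.5 ± 6.28 CPM in control brains (SD, n = 3 each).

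**Figure D2:**
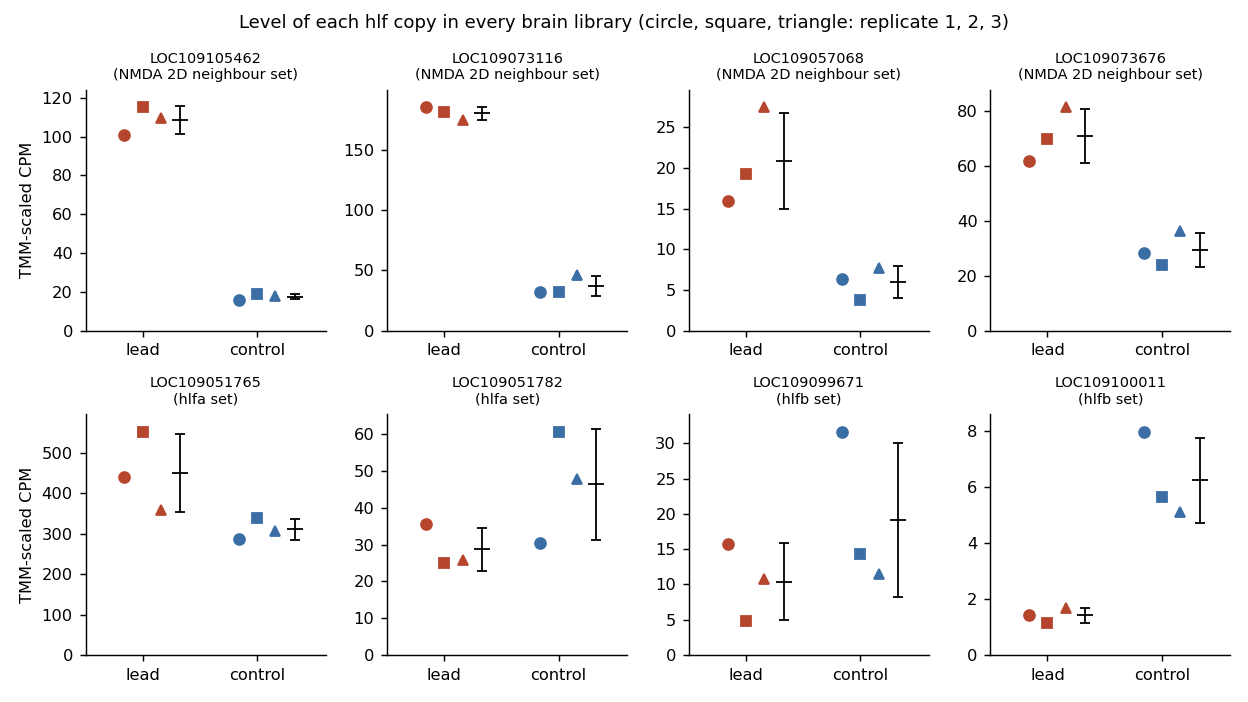
Each panel gives the TMM-scaled CPM of 1 hlf copy on an axis from 0, with lead libraries on the left and control libraries on the right. Marks are libraries, and the bars beside them are the mean and SD of 3 libraries. In the upper panels every lead library is above every control library, while LOC109100011 has 1.15 to 1.70 CPM in lead against 5.12 to 7.98 CPM in control libraries.

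In the hlfa set, LOC109051765 was the most abundant hlf copy in every library. It had 439.8, 552 and 359 CPM in lead replicates 1, 2 and 3, against 288, 339.5 and 306 CPM in control replicates 1, 2 and 3. The lowest lead library lay just above the highest control library. The means were 450.3 ± 97.2 CPM in lead and 311 ± 26.3 CPM in control brains (SD, n = 3 each), which on the log2 scale is a difference of 0.53 (SE 0.18). The copy that the later table names hlfa, LOC109051782, had 35.5, 24.9 and 25.8 CPM in lead replicates 1, 2 and 3, against 30.5, 60.6 and 47.9 CPM in control replicates 1, 2 and 3. Here the groups overlapped, since control replicate 1 was below lead replicate 1. The log2 fold change of -0.69 (SE 0.27) came from means of 28.7 ± 5.91 CPM in lead and 46.4 ± 15.1 CPM in control brains (SD, n = 3 each).

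In the hlfb set, the copy named hlfb, LOC109100011, had 42, 30 and 55 counts in lead replicates 1, 2 and 3, against 286, 182 and 167 counts in control replicates 1, 2 and 3. Scaled, these were 1.42, 1.15 and 1.70 CPM in lead and 7.98, 5.65 and 5.12 CPM in control replicates 1, 2 and 3. No lead library came near a control library. The level was 4.39-fold lower in lead brains, with 1.42 ± 0.272 CPM in lead and 6.25 ± 1.52 CPM in control brains (SD, n = 3 each) and a log2 fold change of -2.13 (SE 0.33). Its partner LOC109099671 had 15.7, 4.76 and 10.7 CPM in lead replicates 1, 2 and 3, against 31.6, 14.3 and 11.4 CPM in control replicates 1, 2 and 3. These groups overlapped, and control replicate 1 was more than 2 times any other library of this group. The log2 fold change was -0.88 (SE 0.53) over all libraries, -0.31 when control replicate 1 was left out, -0.54 when lead replicate 2 was and -1.30 when lead replicate 1 was. Control replicate 1 was the highest library and lead replicate 2 the lowest for both copies of the set.

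Levels of different copies were compared per length, as FPKM. In control brains LOC109051765 stood first at 60.4 ± 4.05 FPKM and LOC109051782 second at 20.4 ± 6.35 FPKM (SD, n = 3 each). LOC109073116, LOC109073676, LOC109099671 and LOC109105462 followed at mean FPKM of 9.86, 9.004, 8.66 and 7.34, and each of these overlapped the next in the order, although every library of LOC109073116 was above every library of LOC109105462. LOC109100011 at 3.54 ± 0.873 FPKM and LOC109057068 at 2.02 ± 0.718 FPKM came last (SD, n = 3 each). In lead brains the order was LOC109051765 at 81.2 ± 15.5, LOC109073116 at 44.9 ± 0.595, LOC109105462 at 42.3 ± 3.02 and LOC109073676 at 20.2 ± 3.38 FPKM (SD, n = 3 each). LOC109051782 at 11.8, LOC109057068 at 6.62, LOC109099671 at 4.38 and LOC109100011 at 0.74 mean FPKM came after them. Only LOC109057068 and LOC109099671 overlapped in that order. Copies share sequence, and the labels do not say how reads that fit several copies were assigned.

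Summed over the 8 copies, the level was 206, 224 and 206 FPKM in lead replicates 1, 2 and 3, against 115, 124 and 125 FPKM in control replicates 1, 2 and 3. The sum was 1.75-fold higher in lead brains, at 212 ± 10.2 FPKM against 121 ± 5.78 FPKM in control brains (SD, n = 3 each), and no library overlapped. The make-up of the sum also differed. The NMDA 2D neighbour set gave 51.5%, 50.7% and 59.3% of it in lead replicates 1, 2 and 3, against 22.7%, 19.6% and 27.4% in control replicates 1, 2 and 3. The hlfa set gave 43.7% ± 5.20 in lead and 66.5% ± 6.04 in control brains, while the hlfb set gave 2.45% ± 1.21 in lead and 10.2% ± 5.45 in control brains (SD, n = 3 each). These shares add to the whole, so a larger share of one set lowers the others. The sum and shares count LOC109105462 and LOC109073116 as separate genes, and likewise LOC109051765 and LOC109051782. They also count the NMDA 2D neighbour set as hlf. None of these was tested. In FPKM units the hlfa set overlapped between the groups, with 92.8, 107.8 and 78.2 in lead replicates 1, 2 and 3, against 69.7, 90.2 and 82.7 in control replicates 1, 2 and 3. The NMDA 2D neighbour set stood at 114 ± 7.81 FPKM in lead against 28.2 ± 5.37 FPKM in control brains (SD, n = 3 each). Means of the hlfa set were 93.0 FPKM in lead and 80.8 FPKM in control brains, and those of the hlfb set 5.12 and 12.2 FPKM. The higher sum thus lay mostly in the NMDA 2D neighbour set. In such bulk tissue, fewer cells of a type and less RNA per cell cannot be told apart.

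**Figure D3:**
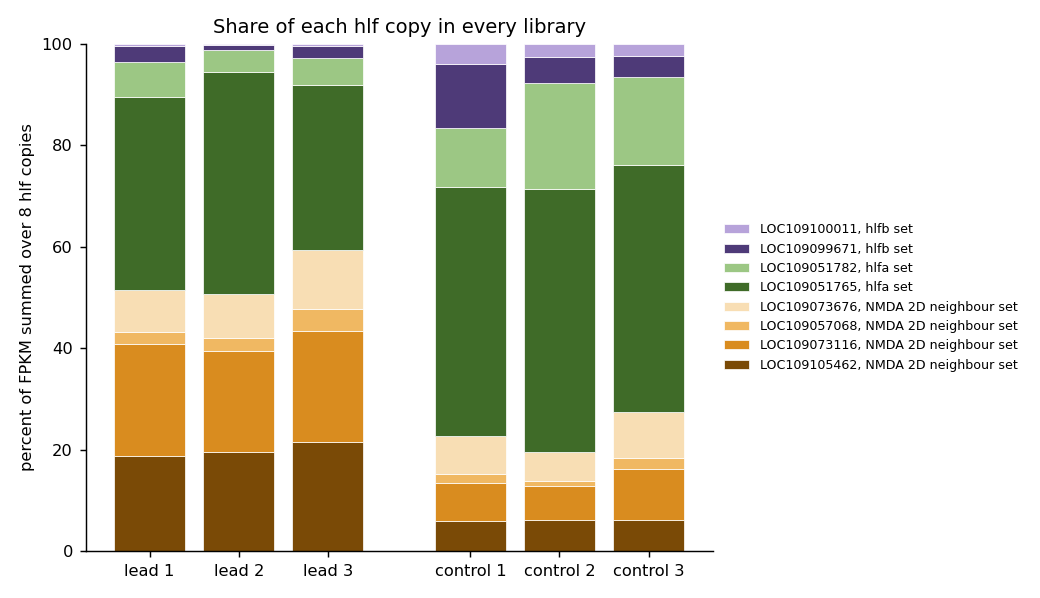
Stacked bars give the percent of the FPKM summed over the 8 hlf copies that each copy makes up, for the 3 lead libraries on the left and the 3 control libraries on the right. The 4 orange to brown copies of the NMDA 2D neighbour set fill 50.7% to 59.3% of the bar in lead and 19.6% to 27.4% in control libraries.

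Across the 6 libraries, Pearson's r of log2(CPM + 1) was 0.92 to 0.99 between the 4 copies of the NMDA 2D neighbour set and 0.70 between the hlfb copies. Between LOC109051765 and LOC109051782 it was -0.45. LOC109100011 had an r of -0.98 with both LOC109105462 and LOC109073116. These 6 points share the lead and control grouping, and correlations within a group were not computed. The genes most like a copy by this measure, among those tested, were for LOC109105462 an unnamed protein gene (LOC109086930, r = 0.998), the RNA methylation regulator gene wtap (LOC109112653, r = 0.997) and septin-6 (LOC109108784, r = 0.997). LOC109086930 had a log2 fold change of 13.8 (SE 0.355), so its r reflects the gap between the groups. For LOC109100011 the genes most like it were vps4b, a gene of membrane sorting (r = 0.998), tetraspanin 18b (LOC109070616, r = 0.996) and ephrin type-B receptor 3 (LOC109047425, r = 0.996). Such genes were picked as the highest of all genes tested on 6 points, so high r values follow from the ranking. Shared regulation was not tested.

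Among rows described as tef or dbp, the related activators of the family, no gene passed the test. Whether copies of the NMDA 2D neighbour set belong with these rows was not tested. Of 4 tef copies and 2 dbp copies, 3 tef copies passed the filter. None was called by edgeR, DESeq2 or limma, and 0 of the 3 had an unadjusted edgeR p under 0.05. LOC109063914, the most abundant, had 253, 234 and 216 CPM in lead replicates 1, 2 and 3, against 220.1, 187 and 196 CPM in control replicates 1, 2 and 3. Its groups overlapped, with a difference of 0.22 on the log2 scale (SE 0.14; adjusted p = 0.452 with edgeR). LOC109068513, which the later table names tefb, had 123, 141 and 134 CPM in lead replicates 1, 2 and 3, against 122, 78.7 and 119.96 CPM in control replicates 1, 2 and 3 (log2 fold change 0.31, SE 0.19, edgeR adjusted p = 0.444). The copy annotated tef had 14.01, 55.6 and 14.03 CPM in lead replicates 1, 2 and 3, against 65.0, 32.2 and 40.2 CPM in control replicates 1, 2 and 3. Lead replicate 2 stood apart from the other lead libraries there, and the log2 fold change was -0.72 (SE 0.62, edgeR adjusted p = 0.602) with it and -1.71 without it. The fourth tef copy (LOC109080475) and the dbp copies (LOC109046726 and LOC109047004) stayed at or below 2.74 CPM in every library.

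Among copies of nfil3, the repressor of the same element, no gene passed the edgeR test. Of 10 copies 7 were tested. None was called by edgeR or limma. DESeq2 called 1 lower, against 4.13% of all genes in either direction. At an unadjusted edgeR p under 0.05, 5 were lower, against 8.77% of all genes. The median log2 fold change of the 7 was -0.91, against -0.01 over all genes tested. The copy LOC109104646 had 5.38, 4.68 and 6.48 CPM in lead replicates 1, 2 and 3, against 16.8, 8.19 and 11.3 CPM in control replicates 1, 2 and 3. Its groups did not overlap (log2 fold change -1.13, SE 0.31, edgeR adjusted p = 0.194). LOC109067834 (log2 fold change -1.46, SE 0.42, edgeR adjusted p = 0.208) and LOC109049686 (-0.92, SE 0.28, edgeR adjusted p = 0.209) came next. LOC109067834 passed the filter only through control, since its FPKM was below 1 in every lead library, so its place among the 5 lower copies is no support for a direction. The most abundant nfil3 copies, LOC109067835 and LOC109049687, had log2 fold changes of 0.11 (SE 0.20) and -0.05 (SE 0.24).

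**Figure D4:**
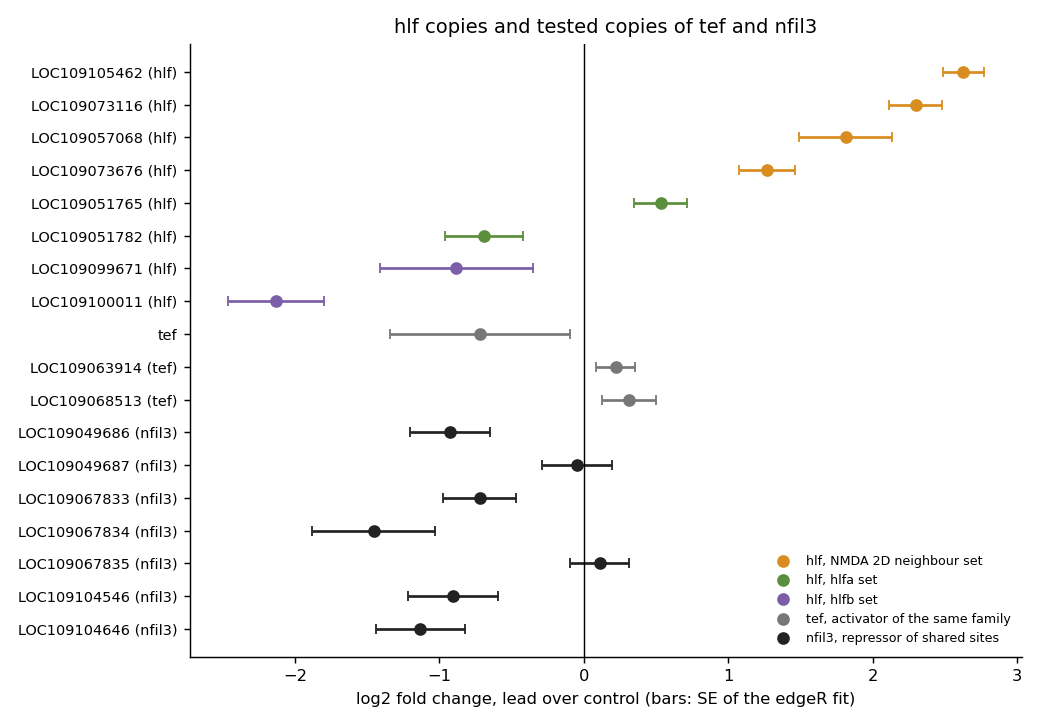
Log2 fold change of lead over control on the horizontal axis, with bars for the SE of the edgeR fit, for the 8 hlf copies by neighbour set, the 3 tested tef copies and the 7 tested nfil3 copies. The hlf copies reach from -2.13 to 2.63, the tef copies from -0.72 to 0.31 and the nfil3 copies from -1.46 to 0.11. The hlf copies were chosen on this contrast, so these ranges cannot be compared. The lowest hlf copy and the lowest nfil3 copy passed the filter only through control.

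In the core clock list, which was written with earlier results of these data known, 6 of 57 tested members rose at an adjusted p of 0.05 with edgeR, against 0.0467% of all genes, and 0 fell, against 0.0124%. At an unadjusted edgeR p under 0.05, 16 were higher and 12 lower, against 7.53% and 8.77% of all genes. DESeq2 called 14 higher and 7 lower, against 4.13% of all genes in either direction. The 6 were 3 copies of nr1d1, a repressor of the clock activators, 2 copies of cryptochrome-2 and 1 of ciart, both of them repressors too. Their log2 fold changes lay between 1.79 and 3.30 (edgeR adjusted p from 0.0132 to 0.0448). The list's count of calls was 0 when lead replicate 2 was left out, 4 when control replicate 2 was, 2 when control replicate 3 was, and 3 when lead replicate 1, lead replicate 3 or control replicate 1 was. The median log2 fold change of the list was -0.01, the same as over all genes tested. The hour of sampling is not in the labels, and its part in the hlf differences was not tested.

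The next list was of gene families with members known from mice to be driven by PAR bZIP factors. It held mainly enzymes of vitamin B6, haem and foreign-compound metabolism. Families were taken whole by name, among them 36 cytochrome P450 2 and 33 glutathione S-transferase copies, so a copy need not be a known target. Of 121 copies 71 were tested, and none was called by edgeR or limma. At an unadjusted edgeR p under 0.05, 7 were higher and 9 lower, against 7.53% and 8.77% of all genes. DESeq2 called 3 higher and 1 lower, against 4.13% of all genes in either direction. The median log2 fold change was -0.21. All 4 pyridoxal kinase copies were tested, and 3 of them were lower at an unadjusted p under 0.05 (median log2 fold change -0.49). An aldehyde dehydrogenase 9 copy, LOC109093818, had 0.846, 0.729 and 0.802 CPM in lead replicates 1, 2 and 3, against 3.74, 1.86 and 2.88 CPM in control replicates 1, 2 and 3 (log2 fold change -1.83, SE 0.43, edgeR adjusted p = 0.175). A copy of PPAR alpha, a nuclear receptor of fatty acid metabolism (LOC109067663), stood at 62.3, 80.0 and 60.6 CPM in lead replicates 1, 2 and 3, against 36.3, 48.1 and 29.9 CPM in control replicates 1, 2 and 3 (log2 fold change 0.83, SE 0.21, edgeR adjusted p = 0.183). Cytochrome P450 2U1 (LOC109046447) differed by 0.65 on the log2 scale (SE 0.17; adjusted p = 0.184 with edgeR).

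Among the genes lying next to the hlf copies, no gene passed the test. Of 66 genes within 5 places of a copy in the deposited table, 38 were tested. That order differs from the later one used in drawing the sets. LOC109057068 and LOC109073676 have no neighbour within 10 places in common between the deposited and later orders. Which order is right was not tested. None of the 38 genes was called by edgeR or limma. DESeq2 called 1 higher and 1 lower, against 4.13% of all genes in either direction. At an unadjusted edgeR p under 0.05, 2 were higher and 4 lower, against 7.53% and 8.77% of all genes. Beside LOC109073116, which was higher with lead, the shisa-7 gene LOC109073114 had 24.7, 16.5 and 23.0 CPM in lead replicates 1, 2 and 3, against 45.4, 31.6 and 39.998 CPM in control replicates 1, 2 and 3 (log2 fold change -0.87, SE 0.21, edgeR adjusted p = 0.181). Beside LOC109051765, the microsomal glutathione S-transferase gene LOC109051860 differed by 0.74 on the log2 scale (SE 0.20; adjusted p = 0.197 with edgeR).

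The labels give the tissue as brain, but their extraction text mentions adipose material. Markers of brain cells were present in all libraries, with a summed 3789.7 to 4343 CPM for neurons in lead libraries and 3709 to 4895 CPM in control libraries. Of the 8 marker lists, that for oligodendrocytes did not overlap between the groups, with a summed level of 1182 to 1392 CPM in lead and 1413 to 1902 CPM in control libraries. None of its 26 tested members was called by edgeR, 7 were lower at an unadjusted p under 0.05, DESeq2 called 3 lower, and 3 of its 47 members, all copies of myelin-associated glycoprotein, were at 0. Pituitary markers also did not overlap, at 14.9 to 27.2 CPM in lead and 5.34 to 14.1 CPM in control libraries, with 2 of 11 members tested, none called by edgeR and 1 called higher by DESeq2. At an unadjusted p under 0.05, 1 of these 2 was higher. Of the 11, 1 somatolactin copy was at 0. Astroglial markers lay at 3927 to 4596 CPM in lead and 4312 to 5065 CPM in control libraries, and 7 of 17 tested members were lower at an unadjusted edgeR p under 0.05. None was called by edgeR, and DESeq2 called 6 lower. Neuronal markers had 6 of 23 tested members lower and 0 higher at that unadjusted level, and microglial markers 4 of 15 lower and 0 higher. None of either was called by edgeR, while DESeq2 called 1 neuronal and 2 microglial markers lower. Over all genes tested, 7.53% were higher and 8.77% lower at an unadjusted edgeR p under 0.05, and DESeq2 called 4.13% in either direction. Of single genes tested, 24.5% did not overlap between the groups, and nothing is read from the lists that did not. Summed levels of microglial, endothelial, red blood cell, and retina and pineal markers overlapped between the groups. Of 21 tested retina and pineal markers edgeR called 1 lower, against 0.0124% of all genes. That marker was not called without lead replicate 3, with the replicate number as a block, or by limma. The part of these cell types in the hlf differences was not tested.

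**Figure D5:**
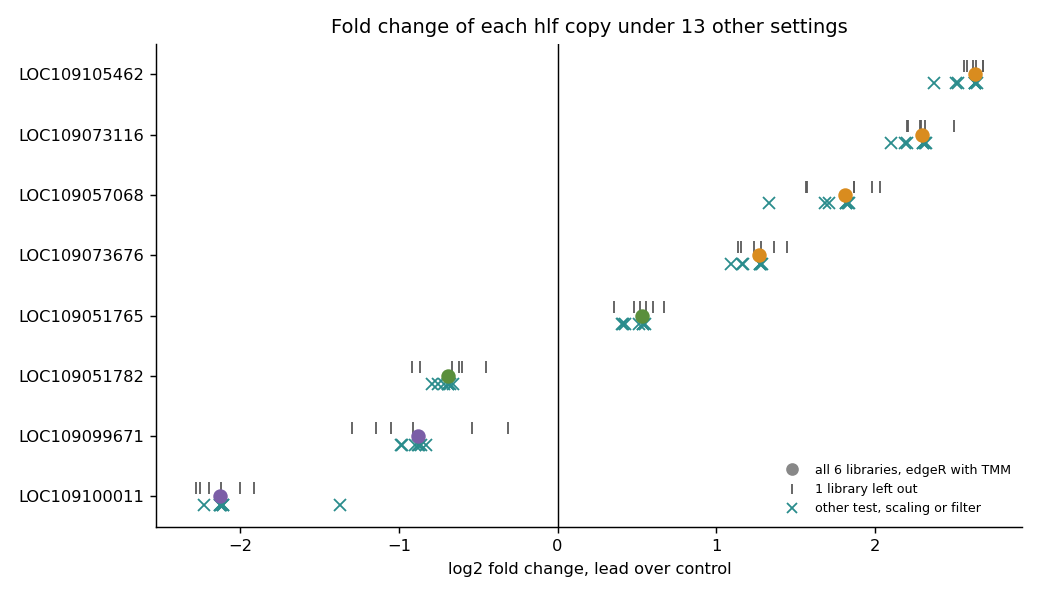
Log2 fold change of each hlf copy, lead over control, on the horizontal axis, with the fit on all 6 libraries as circles and 13 other settings as ticks and crosses. Each copy stays on its own side of 0, and LOC109099671 spreads most among the fits with 1 library left out, from -1.30 to -0.31.

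No setting turned the direction of any of the 8 copies. The settings reuse the same libraries, and the copies were chosen on this contrast, so a kept direction is no support for it. The values of the 4 copies of the NMDA 2D neighbour set stayed between 1.09 and 2.68, and those of LOC109100011 between -2.28 and -1.37.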

How the data were processed

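The authors deposited 1 table of genes with 6 columns of counts and 6 of FPKM. The file headers call the first of these counts, and their values are whole numbers per gene. The headers do not say whether these counts were scaled. The FPKM columns are the authors' own scaling of those libraries by transcript length and depth. Bowtie 0.12.2, HISAT2 2.0, StringTie 1.3.0 and the mouse build mm8 are listed, without roles, in the submitters' processing notes, yet the table places genes on carp RefSeq sequences. Strand and multi-copy rules are not given in the sources used here.

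The fit to counts used R 4.3.3 and edgeR 4.0.16 (TMM scaling, robust quasi-likelihood test, no covariate) for the 32149 genes that reached 1 FPKM in 3 or more libraries, with p-values adjusted over all of them. The biological coefficient of variation was 36.6%. The fit was also run on data simulated with a lower spread, the same for every gene, so that run does not test it at 36.6%. Alternatives used DESeq2 1.42.0, limma 3.58.1 on log2(FPKM + 1) and log2(FPKM + 0.1), RLE scaling, library totals, no filter, the replicate number as a block, and each library left out. Members, lists and tests were chosen with earlier results of these data known. Named genes were all hlf copies, the 3 members of smallest p and any called member of the tef and dbp, nfil3 and target lists, called clock genes, and the 3 genes most correlated with a copy. Neighbouring genes, neighbour sets and the 2 most abundant nfil3 copies were named after values were seen. Gene IDs were matched to a later RefSeq gene table (34840 of 53152 found), used for names and gene order only.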

Additional observations from a re-analysis of the deposited data

How the results depend on the processing

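Of 104 refits of the 8 hlf copies, none turned a direction, and 100 moved a log2 fold change by less than the spread between replicates. All refits reuse the libraries on which the copies were chosen, so they show only how far the values depend on processing. The others came from limma: with log2(FPKM + 1) the values were 1.33 for LOC109057068, -1.37 for LOC109100011 and 2.38 for LOC109105462, and with log2(FPKM + 0.1) 2.51 for LOC109105462. The value of LOC109105462 with library totals only was 2.53. With 1 library left out, log2 fold changes ran from 0.36 to 0.67 for LOC109051765, from -0.92 to -0.45 for LOC109051782, from 1.56 to 2.04 for LOC109057068, from 2.21 to 2.50 for LOC109073116, from 1.14 to 1.45 for LOC109073676, from -1.30 to -0.31 for LOC109099671, from -2.28 to -1.91 for LOC109100011 and from 2.57 to 2.68 for LOC109105462.

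Over all genes 19 were called; 30 were called with no FPKM filter, 1324 with DESeq2, and 4 to 25 with 1 library left out. In the core clock list 6 were called, 3 with library totals only, 21 with DESeq2 and 0 to 4 with 1 library left out. DESeq2 called 1 nfil3 copy and 4 copies of the target list, against 4.13% of all genes, where edgeR called 0 of either. The causes were not tested. Library totals moved the median log2 fold change of all genes by -0.10, and the direction of no hlf copy.

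With the replicate number as a block, 1 gene was called (LOC109105462) and 0 of the core clock list, where an unadjusted p under 0.05 was found for 16 higher and 14 lower genes. Deviations of same-numbered libraries from their group means correlated at 0.17, 0.07 and 0.13 for numbers 1, 2 and 3. Not every library correlated best with its own number: lead library 2 did so with control library 3, at 0.08. This is a hint from the data, and the labels state no pairing.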

Other observations

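Within the core clock list, the counts by gene family were as follows. Of 10 tested copies of the nr1d repressors, 8 were higher in lead brains and 0 lower at an unadjusted edgeR p under 0.05, with a median log2 fold change of 1.11, and 3 of them were called. Of 4 ciart copies 3 were higher at that level (median 1.75), with 1 called. Copies of ror, the activators that compete with nr1d proteins for the same DNA element, had 5 of 9 tested copies lower at that level, 0 higher and a median of -1.03, and none was called by edgeR. Of 6 period copies 1 was lower and 0 higher (median -0.15), and of 10 cryptochrome copies 2 were higher, both called, and 3 lower (median -0.57). Of 4 tested arntl copies 1 was higher and 2 lower, and of 3 tested clock copies 0 were higher and 1 lower. Of 3 bhlhe40/41 copies 1 was higher and 0 lower, and of 4 casein kinase I delta or epsilon copies 1 was higher and 0 lower. Of 4 timeless copies 0 were higher and 0 lower, and the 1 npas2 copy was not tested. Over all genes tested, 7.53% were higher and 8.77% lower at that level, while edgeR called 0.0467% higher and 0.0124% lower. Without lead replicate 2, or with the replicate number as a block, no member of the list was called by edgeR. The difference between families was not tested.

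The genes whose levels followed the other hlf copies most closely over the 6 libraries were, for LOC109073116, LOC109081795 with no description (r = 0.999), a glucosylceramidase gene (LOC109093044, r = 0.997) and chromobox 8 (LOC109061103, r = 0.995). For LOC109057068 they were methionine aminopeptidase 2 (LOC109049897, r = 0.996), cardiac alpha actin (LOC109052669, r = 0.991) and a hypothetical protein gene (LOC109113360, r = 0.99). For LOC109073676 they were znhit1, oligophrenin-1 (LOC109084153) and a ceramide cholinephosphotransferase gene (LOC109108029), each with r = 0.994. For LOC109051765 they were protein C10 (LOC109091407, r = 0.998), steroid receptor RNA activator 1 (LOC109079195, r = 0.993) and peptidyl-prolyl isomerase G (LOC109048502, r = 0.992). For LOC109051782 the closest was a growth hormone receptor gene (LOC109058194, r = 0.989), followed by LOC109109868 and LOC109056546 (r = 0.986 each). For LOC109099671 they were LIM domain only protein 7 (LOC109066022, r = 0.997), a scaffold protein gene (LOC109063361, r = 0.993) and vimentin A2 (LOC109072795, r = 0.992). All were picked as the highest of the genes tested on 6 points, so high r values follow from the ranking. Shared regulation was not tested.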
